A study of Mus musculus with 18 samples.

Results

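RNA of the optic nerve head was compared at 22 months of age between 3 libraries labelled B6.EDA+/+ and 5 libraries labelled C57BL/6J control, which are 8 of the 18 mouse libraries of the series. The members were chosen by the title of each library alone, and all 15118 genes with enough reads were tested. B6.EDA+/+ mice carry fibronectin alleles engineered so that the extra domain A (EDA) exon is always spliced in, on the C57BL/6J background that the controls share, and no other allele or treatment is named for either group. The labels give neither sex nor litter and name no animal for a library. The p-values here therefore measure only how far these libraries differ from each other, and that spread may be technical. Each title also carries a number of its own, and what it stands for is not given. At 22 months all numbers of EDA-labelled libraries come before those of the controls. Label and order of numbering therefore cannot be told apart. The other 10 libraries, 5 of each label at 12 months, entered the same model and are used here only to set the 12-month difference beside the 22-month one.

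The optic nerve head is where the axons of retinal ganglion cells turn and leave the eye through a lamina of astrocytes and extracellular matrix, and it is the site where glaucoma first damages those axons. Fibronectin is a large matrix glycoprotein that cells bind through integrins such as the Itga5 and Itgb1 pair. Its EDA form is made in injured tissue, can act as a damage signal on Toll-like receptor 4 (TLR4) and NF-kappaB, and is known to go along with transforming growth factor beta (TGF-beta) signalling in fibrosis. The series title names damage signals and fibrotic and inflammatory changes of the optic nerve head in glaucoma as its subject.

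The engineered exon was examined before any gene, because it should tell the labels apart. It is exon 33 of 46 of Fn1 and 270 nt long, and its reference sequence, read from the GENCODE M21 transcripts and shown because the check of the labels rests on it, is given 5′ to 3′ on the strand of the gene.
Fn1 EDA exon: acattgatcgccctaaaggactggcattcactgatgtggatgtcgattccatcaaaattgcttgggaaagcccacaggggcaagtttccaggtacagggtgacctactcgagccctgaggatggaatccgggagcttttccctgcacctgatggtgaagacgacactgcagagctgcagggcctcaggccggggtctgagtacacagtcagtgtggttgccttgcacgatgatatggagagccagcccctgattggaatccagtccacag
Of the Fn1 isoforms that span this position, 4 of 8 hold the exon. Their share of the TPM of all 8 (the authors' abundance scaled for transcript length) was 0%, 12.6% and 0% in EDA-labelled replicates 1 to 3. In control-labelled replicates 1 to 5 it was 0%, 0%, 100%, 8.90% and 100%. By these estimates the exon was at its highest in 2 control-labelled libraries and at 0 in 2 of the 3 libraries where the label calls for constant inclusion. These shares are estimates that rest on 134, 213 and 162 Fn1 reads in the EDA-labelled libraries and on 68 to 474 in the controls. If every read could tell the isoforms apart, a count of 0 would allow up to 3.12% in the shallowest library at 0. That is counting error only, since reads copied by PCR are not independent molecules. Only reads on the exon or across its junctions show it directly, so the true limit is wider and was not estimated. A share of 0 therefore does not show that the exon was absent. Likewise a share of 100% does not show that every transcript held it, since it sums all reads assigned to isoforms with the exon. The libraries are therefore called EDA-labelled and control-labelled, and each direction is between labels.

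**Figure D1:**
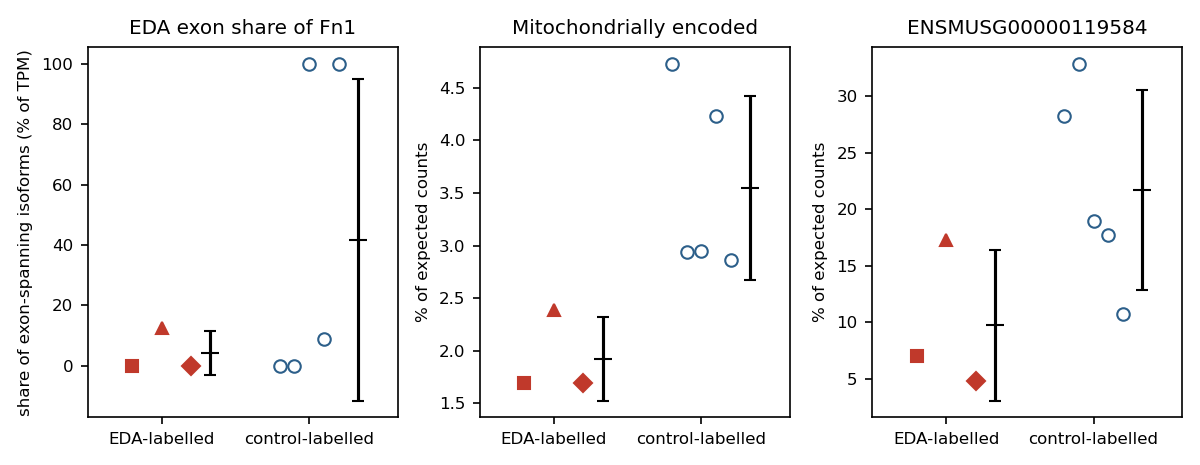
Each point is 1 library at 22 months, with mean ± SD of the group in black, for the EDA exon share of Fn1 (percent of the TPM of isoforms that span the exon) and for the share of expected counts in mitochondrially encoded genes and in ENSMUSG00000119584. The exon share reaches 100% only in 2 control-labelled libraries, while the mitochondrial share of all 3 EDA-labelled libraries, 1.69% to 2.39%, lies below the 2.86% to 4.73% of the controls.

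Libraries of a group differed from each other in several ways that move with the results below. Totals ran from 13340848 to 15790011 expected counts, and the number of genes with at least 10 reads from 9715 to 13061. EDA-labelled replicate 3 and control-labelled replicates 2 and 5 had the fewest genes, 9715, 10581 and 10644, and replicate 3 had 123000 CPM (counts scaled to library size) of Lars2 against 26300 to 66900 in the rest. EDA-labelled replicate 1 had 82.1 CPM of Xist, the RNA of the inactive X, and 0 CPM over 4 Y-linked genes (Ddx3y, Kdm5d, Uty and Eif2s3y), while the other 7 libraries held 72.6 to 179 CPM over those Y-linked genes and at most 2.45 CPM of Xist. The single identifier ENSMUSG00000119584, which has no symbol in the annotation used, took 7.03%, 17.3% and 4.81% of reads in the EDA-labelled libraries and 10.7% to 32.8% in the controls. Of 7 measures of this kind none differed past the threshold (exact two-sided permutation tests, smallest adjusted p = 0.167, and 0.0357 is the smallest unadjusted p that 3 against 5 allow). After adjustment a measure could pass only if most of the 7 reached that smallest p, so these tests could hardly find a difference.

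The tissue label was checked against its markers. Gfap and Slc1a3, astrocyte genes, were at 2580 to 7770 TPM and 321 to 645 TPM over the 8 libraries. Pax2, a transcription factor of optic nerve head astrocytes, was at 31.8 to 118 TPM. The epithelial keratins Krt5 and Krt14 were listed at 0 in all 8. Transcripts of neighbouring tissue were present in single libraries: the summed level of the 23 photoreceptor genes listed was 3494 CPM in control-labelled replicate 2 and 7.56 to 120 CPM in the others. Oligodendrocyte and myelin genes summed to 33310 CPM in control-labelled replicate 3 and to 972 to 4509 CPM in the others. Skeletal muscle genes summed to 323 CPM in EDA-labelled replicate 1 and to 1.56 to 14.1 CPM in the others. In such bulk RNA, fewer cells of a type and less RNA per cell cannot be told apart.

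**Figure D2:**
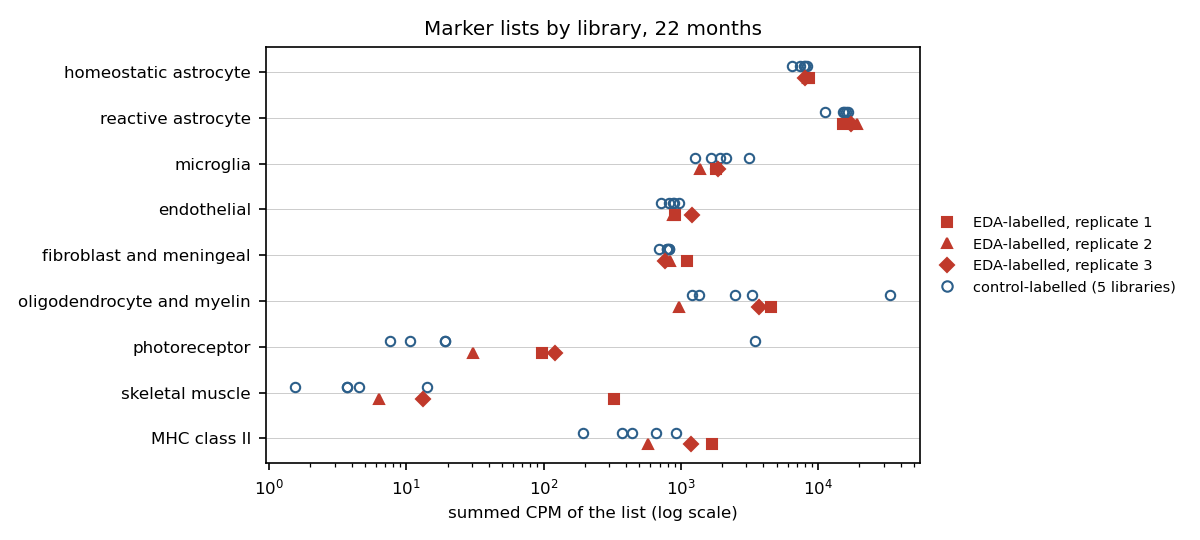
Summed CPM of 9 marker lists (log axis) in each of the 8 libraries at 22 months, red for EDA-labelled and open blue for control-labelled. Astrocyte sums lie close together in both groups, while myelin (33310 CPM), photoreceptor (3494 CPM) and skeletal muscle (323 CPM) sums each stand out in 1 library.

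No gene passed the adjusted threshold. By edgeR's quasi-likelihood test, 0 of 15118 genes (0.0%) had an adjusted p under 0.05, and the lowest adjusted p was 1. At an unadjusted p under 0.05 there were 599 genes (3.96%), 316 higher (2.09%) and 283 lower (1.87%) in EDA-labelled libraries, against 756 that chance alone would give. DESeq2, run as an alternative, called 34 of 14961 genes (0.227%), 8 higher (0.0535%) and 26 lower (0.174%), limma voom called 0, and voom with quality weights called 1, Mesp2, a transcription factor of somite patterning with 3.94, 1.37 and 7.90 CPM in the EDA-labelled libraries and 0 CPM in the 5 controls. The log2 fold changes of all genes had a median of -0.0741 and 46.0% were above 0. The typical difference was smaller than its error: the median absolute log2 fold change was 0.57 and the median standard error 1.03, or 0.43 for the 3132 genes that average 5 log2 CPM or more.

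Single EDA-labelled libraries were often the extreme in the genes at an unadjusted p under 0.05. Among the 7544 genes that average 2 log2 CPM or more, replicate 3 was the highest of the 8 libraries in 22.7% and the lowest in 28.5%. It was the highest in 88.9% of the 153 higher genes at an unadjusted p under 0.05 and the lowest in 67.4% of the 92 lower ones, while replicate 1 was the lowest in 28.3% of those. Choice by p itself puts 1 of the 3 EDA-labelled libraries at the extreme of nearly all these genes. The 22.7% and 28.5% over 8 libraries are therefore no baseline for them. Over the 7544 genes, replicate 1 was the highest in 10.6% and the lowest in 9.3%. Without replicate 3, 263 genes were at an unadjusted p under 0.05 in edgeR in place of 599, and without EDA-labelled replicate 2, the highest of the 8 in 7.7% and the lowest in 5.9% of the 7544 genes, there were 1269. Of those 1269 genes 469 were higher and 800 lower, and again 0 passed the adjusted threshold, with a lowest adjusted p of 0.198 (edgeR). Every difference given below is a description of these 8 libraries with an error, and none is a call by edgeR. The gene lists below are described by counts and medians, and in 39 of the 64 lists the median took both signs when each library was left out in turn. List counts at an unadjusted p under 0.05 in edgeR are to be read beside 2.09% higher and 1.87% lower over all genes. Groups did not overlap in 2.75% of all genes.

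Ranked by edgeR's unadjusted p among well-measured genes with a symbol (an average of 2 log2 CPM or more, and conditions on single libraries), 10 genes with larger and 10 with smaller values under the EDA label are described here with their values. Cped1, a gene of the cadherin-like and PC-esterase family, gave 94.3, 59.1 and 174 CPM in the EDA-labelled libraries and 27.4, 34, 37.9, 56.6 and 57.9 CPM in the controls. The groups did not overlap, as in 2.75% of all genes tested (1.32% with EDA-labelled values higher and 1.43% with them lower). The ranked genes were chosen by small p and by the place of single libraries. That choice makes groups without overlap likelier among them, so such groups are no separate support. The log2 fold change of Cped1 was 1.35 ± 0.42 (standard error, edgeR unadjusted p = 0.00438, adjusted p = 1). Cdkn1a, the gene of p21, which halts the cell cycle, was at 308, 84.4 and 91.7 CPM against 57.7, 34.4, 70.3, 64.1 and 84.7 CPM. Replicate 1 stood well above the rest, and the groups overlapped, since replicate 2 was just under the highest control. Cdkn1a had a log2 fold change of 1.37 ± 0.43 (edgeR unadjusted p = 0.00454), which was 0.50 without EDA-labelled replicate 1.

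Evpl, which encodes envoplakin, a linker of intermediate filaments to desmosomes, was at 29.9, 12.6 and 35.6 CPM against 9.83, 7.07, 5.57, 10.0 and 10.7 CPM. All 3 EDA-labelled libraries lay above all controls, and the log2 fold change was 1.59 ± 0.51. Lypla2, an acyl-protein thioesterase that removes palmitate from proteins, was at 69.6, 55.8 and 68.8 CPM against 37.8, 18.4, 31.7, 39.5 and 22.0 CPM. It had the tightest EDA-labelled values of the 10 genes on the plotted log axis, with no overlap and a log2 fold change of 1.11 ± 0.36 that ran from 0.98 to 1.24 when each library was left out in turn. Spindoc, a partner of the chromatin reader Spin1, was at 44.2, 19.0 and 38.5 CPM against 4.33, 2.97, 13.8, 12.9 and 18.5 CPM. Replicate 2 was only just above the highest control, and the log2 fold change was 1.69 ± 0.56.

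Tomm20, the receptor of the translocase that imports proteins into mitochondria, was at 93.6, 80 and 129 CPM against 66.6, 47.1, 59.6, 54.3 and 52.6 CPM. Its groups did not overlap, and its log2 fold change was 0.85 ± 0.29. Pnpla6, a phospholipase whose loss harms long axons, was at 86.1, 64.2 and 140 CPM against 33, 46.6, 54.2, 55.9 and 58.3 CPM, with a log2 fold change of 0.96 ± 0.33 and no overlap. Ssbp4, a single-stranded DNA-binding protein, was at 287, 134 and 802 CPM against 77.9 to 269 CPM, and Dexi, a small dexamethasone-induced transcript, at 124, 46.0 and 324 CPM against 31.5 to 97.9 CPM. In both of these genes control-labelled replicate 5 lay above EDA-labelled replicate 2, so the groups overlapped. Their log2 fold changes, 1.68 ± 0.57 for Ssbp4 and 1.68 ± 0.56 for Dexi, were 0.72 and 0.73 without EDA-labelled replicate 3. The protocadherin Pcdhgb1, a neuronal adhesion molecule whose exons are shared within its cluster so that its counts are uncertain, was at 69.2, 42.3 and 160 CPM against 13.8 to 53.8 CPM and had a log2 fold change of 1.40 ± 0.47. Without replicate 3, 6 of the 20 ranked genes were no longer at an unadjusted p under 0.05 in edgeR, namely Cped1, Dexi, Pcdhgb1, Pnpla6, Ssbp4 and Tomm20, all of them among the higher ones.

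**Figure D3:**
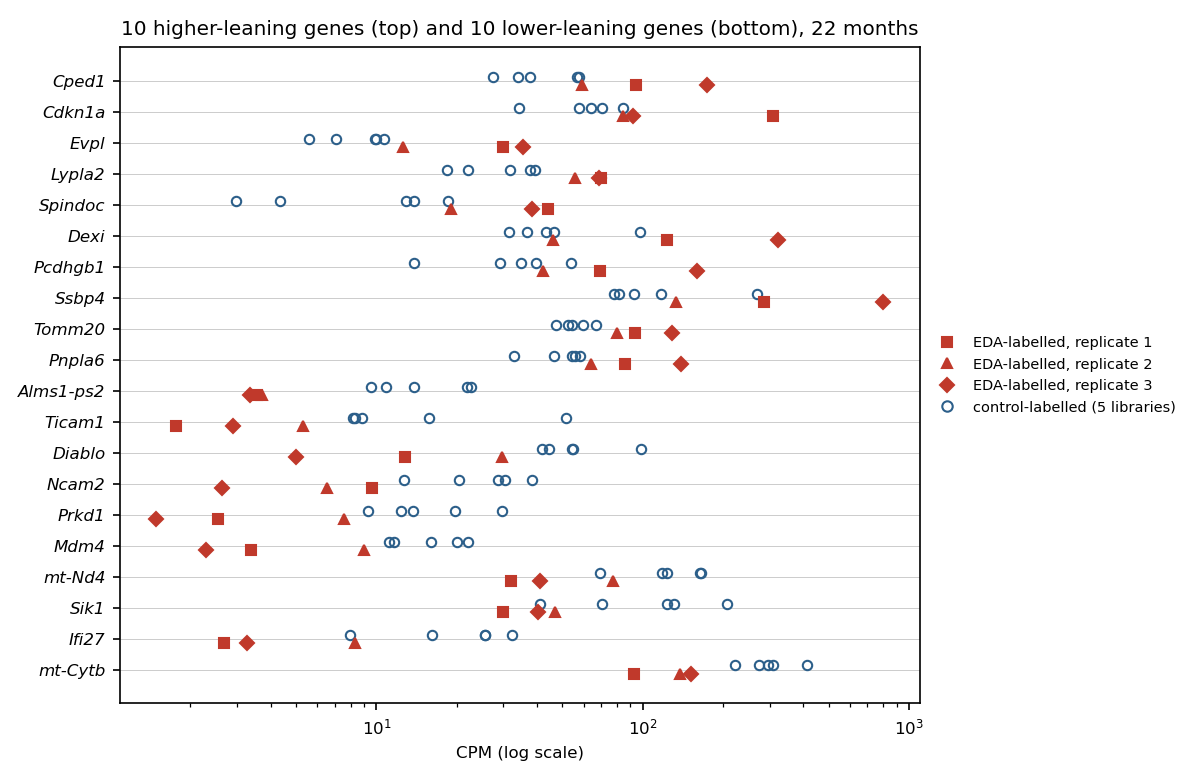
CPM on a log axis of the 20 genes with the smallest unadjusted p that meet the naming rule, 10 with higher values (top) and 10 with lower values (bottom) in EDA-labelled libraries, 1 point per library. EDA-labelled replicate 3 (diamonds) is the highest point in 7 of the 10 upper genes and the lowest in 5 of the 10 lower ones, and in Alms1-ps2 the 3 red points fall together at 3.34 to 3.71 CPM.

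Of the 10 genes with smaller values the pseudogene Alms1-ps2 had the smallest p. It was at 3.57, 3.71 and 3.34 CPM in EDA-labelled libraries and 22.6, 21.9, 13.8, 10.9 and 9.56 CPM in the controls. No other of the 20 genes had EDA-labelled values this close together and a gap of this size to the lowest control. Alms1-ps2 had a log2 fold change of -2.15 ± 0.61 (edgeR unadjusted p = 0.00215, adjusted p = 1), and it was the only well-measured gene that DESeq2 called (adjusted p = 0.019). It ran from -2.29 to -1.99 when each library was left out in turn, and it is uncertain as a pseudogene, because reads can be divided between it and its parent Alms1.

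Ticam1, which encodes TRIF, the adaptor that carries TLR3 and TLR4 signals to interferon genes, was at 1.76, 5.29 and 2.90 CPM against 8.81, 51.4, 15.7, 8.13 and 8.30 CPM. The groups did not overlap, and control-labelled replicate 2 was far above the other controls. The log2 fold change of Ticam1 was -2.48 ± 0.73, and -1.63 without that library. Diablo, a mitochondrial protein that releases caspases from inhibition, was at 12.8, 29.5 and 5.0 CPM against 54.7, 41.7, 54.1, 44.4 and 98.8 CPM. All EDA-labelled libraries lay below all controls, replicate 3 lowest, with a log2 fold change of -1.89 ± 0.58. Ncam2, a cell adhesion molecule of axons, was at 9.63, 6.53 and 2.63 CPM against 30.5, 12.7, 38.3, 20.4 and 28.5 CPM, without overlap, at a log2 fold change of -2.06 ± 0.65.

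Prkd1, protein kinase D1, was at 2.54, 7.56 and 1.49 CPM against 9.27 to 29.5 CPM, and Mdm4, an inhibitor of p53, at 3.39, 9.0 and 2.28 CPM against 11.1 to 22.1 CPM. Neither gene overlapped between the groups, and the log2 fold changes were -2.13 ± 0.68 for Prkd1 and -1.72 ± 0.56 for Mdm4. Sik1, a salt-inducible kinase that is an early target of cyclic AMP, was at 29.9, 46.8 and 40.6 CPM against 41.1, 70.4, 131, 207 and 123 CPM, so that control-labelled replicate 1 lay within the EDA-labelled range (log2 fold change -1.55 ± 0.52). Ifi27, an interferon-induced gene of mitochondria, was at 2.67, 8.31 and 3.25 CPM against 7.94 to 32.2 CPM (-2.18 ± 0.73), with 1 control inside the EDA-labelled range. The last 2 of the 10, mt-Nd4 and mt-Cytb, belong to the mitochondrial genome.

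Transcripts of the mitochondrial genome, which encodes 2 ribosomal RNAs, transfer RNAs and core subunits of respiratory complexes I, III, IV and V, took a smaller share of reads under the EDA label. The share was 1.70%, 2.39% and 1.69% in the EDA-labelled libraries and 4.73%, 2.94%, 2.95%, 4.23% and 2.86% in the controls. The groups did not overlap, and the means were 1.93% ± 0.399 (SD, n = 3) and 3.54% ± 0.874 (SD, n = 5), with an exact two-sided permutation p of 0.0357 that became 0.167 after adjustment over 7 library measures. All 12 tested protein-coding genes had a log2 fold change below 0, with a median of -1.02 beside -0.0741 over all genes. Of the 12, 4 were at an unadjusted p under 0.05 in edgeR (1.87% of all genes were, and lower), and 7 had groups that did not overlap, with EDA-labelled values lower (1.43% of all genes). These genes are cut from long shared transcripts and are not independent of each other. The share counts every gene of the mitochondrial genome, and 26 of them were tested, 19 below 0 with a median of -0.84. The large ribosomal RNA mt-Rnr2, the most abundant of the 14 that do not code for protein, was at 5140, 8880 and 10500 CPM against 21700, 15700, 11300, 14200 and 12200 CPM (-0.88 ± 0.39). The small one, mt-Rnr1, was at 1040, 2170 and 1690 CPM against 4730, 3680, 3110, 3610 and 3590 CPM (-1.20 ± 0.43). Neither overlapped between the groups, while the 12 tested transfer RNAs, at most 13.2 CPM each, had 7 above 0.

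Of the complex I subunits, mt-Nd5 was at 893, 1290 and 841 CPM against 3080, 1450, 1630, 2520 and 1350 CPM, and mt-Nd1 at 1770, 2630 and 2120 CPM against 6530, 3460, 3370, 5750 and 3100 CPM. In each the highest EDA-labelled library was below the lowest control. Their log2 fold changes were -0.99 ± 0.40 and -1.03 ± 0.50, beside -1.05 ± 0.56 for mt-Nd2, -1.01 ± 0.44 for mt-Nd6 and -1.35 ± 0.45 for mt-Nd4. For mt-Nd4, EDA-labelled replicate 2 at 77.4 CPM lay above the lowest control at 68.9 CPM. Cytochrome b of complex III, mt-Cytb, was at 92.7, 138 and 152 CPM against 415, 273, 223, 297 and 309 CPM, with a log2 fold change of -1.25 ± 0.42. mt-Co1 of complex IV and mt-Atp6 of complex V lay lower without overlap at -0.89 ± 0.45 and -0.81 ± 0.44, while mt-Atp8 (-0.60 ± 0.51) overlapped. The remaining 3, mt-Co2, mt-Nd3 and mt-Nd4l, were at 0 in at least 1 library of each group and had errors above 2.

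**Figure D4:**
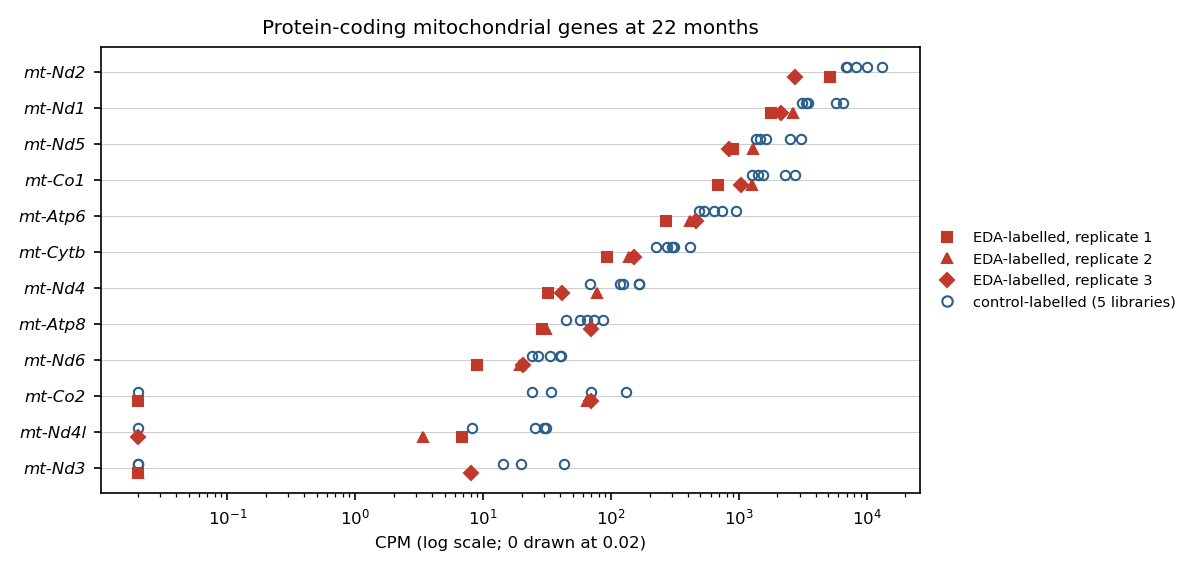
CPM on a log axis of the 12 tested protein-coding genes of the mitochondrial genome in each of the 8 libraries, ordered by the mean level in the controls, with a value of 0 drawn at 0.02. In 7 of the 12 genes, among them mt-Nd1, mt-Nd5 and mt-Cytb, all 3 EDA-labelled points lie below all 5 controls.

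The median of the 12 protein-coding genes kept its sign in each of the 20 alternative settings, from -1.21 to -0.80, and from -1.19 to -0.87 when each library was left out in turn. At 12 months it was -0.09, with 4 of 12 members above 0. EDA-labelled libraries also had fewer reads of ENSMUSG00000119584 (9.70% ± 6.65, n = 3, against 21.7% ± 8.82, n = 5, SD, exact permutation p = 0.0714), and its part in the mitochondrial difference was not tested beyond a fit with its share as a covariate, in which the median was -0.80.

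Nuclear genes of the same complexes were listed too. Of 45 tested subunits of oxidative phosphorylation 26 were above 0, with a median of 0.16. Of the 45, 2 were at an unadjusted p under 0.05, both higher (2.09% of all genes were). Cox6a1 of complex IV was at 1600, 890 and 5600 CPM against 665 to 1590 CPM (log2 fold change 1.38 ± 0.47), with replicate 3 far above the rest. Ndufs3 of complex I was low throughout, at 4.85, 0.825 and 0.615 CPM against 0 to 0.393 CPM, and Cox7c lay the other way at 0 to 1.72 CPM against 1.97 to 8.60 CPM (-2.22 ± 1.19). Of 19 genes that maintain or translate mitochondrial DNA 11 were above 0 (median 0.14), and the one with the smallest p was the ribosomal protein Mrpl12 at 1.13 ± 0.74.

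Fibronectin and its receptors come first in the pathway. Fn1 was at 8.12, 14.6 and 14.2 CPM in EDA-labelled libraries and 29, 8.64, 4.26, 27.3 and 35.1 CPM in the controls. The controls spread on both sides of the EDA-labelled values, and the log2 fold change was -0.76 ± 0.67 (edgeR unadjusted p = 0.267). Itga5, the alpha chain of the classical fibronectin receptor, was at 19.4, 45.4 and 27.1 CPM against 47.0, 57.4, 45.8, 39.1 and 9.93 CPM, with a log2 fold change of -0.38 ± 0.64. Control-labelled replicate 5 was the lowest of all 8 libraries there. Over the 14 tested genes of fibronectin, its integrins and its other surface partners, 4 were above 0, the median was -0.40, and 0 were at an unadjusted p under 0.05. Itgb8, an activator of latent TGF-beta, at 0.20 ± 0.31, and Itgav at -0.63 ± 0.57 lay on opposite sides.

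Next is the receptor through which EDA-fibronectin can act as a damage signal. Tlr4 was at 14.5, 17.5 and 11.2 CPM against 21.6, 15.4, 19.7, 27.5 and 13.7 CPM (log2 fold change -0.44 ± 0.80), and the groups overlapped. Myd88, the adaptor of most Toll-like receptors, was near the limit of detection at 0.242, 1.37 and 0.263 CPM against 0.538 CPM in 1 control and 0 in the other 4 (2.42 ± 2.03). Of 16 tested members 11 were below 0, the median was -0.29, and only Ticam1, described above, was at an unadjusted p under 0.05. Downstream, 10 of 15 NF-kappaB genes were above 0 with a median of 0.17, which was -0.24 without EDA-labelled replicate 2. Ikbkb, the kinase that marks the inhibitor of NF-kappaB for destruction, was at 20.2, 13.1 and 36.3 CPM against 7.79, 10.7, 10.0, 9.15 and 18.9 CPM, with control-labelled replicate 5 inside the EDA-labelled range (1.04 ± 0.47).

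Of the TGF-beta genes, Tgfb2, the main TGF-beta ligand of the optic nerve head, was at 303, 452 and 246 CPM against 326, 345, 325, 447 and 319 CPM. The log2 fold change was -0.08 ± 0.35, close to none, and with the library-share covariate it was 0.27. Of 20 ligands, receptors and Smads 9 were above 0, with a median of -0.09 and 0 at an unadjusted p under 0.05. Tgif1, a corepressor of Smads, had the smallest p at 0.78 ± 0.46. Among 16 genes of the BMP branch, which opposes TGF-beta in this tissue, 6 were above 0 (median -0.19), and the receptor Bmpr1b was at -0.57 ± 0.49.

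Of 10 fibrillar collagens 7 were above 0, with a median of 0.59 and 0 at an unadjusted p under 0.05. Col1a1, the chain that defines scar collagen, was at 14.7, 17.4 and 1.49 CPM against 0.865, 3.84, 6.39, 11.8 and 0.667 CPM. EDA-labelled replicates 1 and 2 were the highest of the 8 and replicate 3 was among the lowest, so the log2 fold change of 1.25 ± 1.20 was close to its error. Col1a2, the partner chain, was at -0.36 ± 0.38 and Col5a1 at 0.68 ± 0.47.

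Basement membrane genes had 14 of 22 members above 0 (median 0.29). Hspg2, the heparan sulphate proteoglycan perlecan, was at 122, 90.6 and 168 CPM against 40.5, 52.9, 72.8, 81.8 and 91.9 CPM. Only control-labelled replicate 5 reached the EDA-labelled range, and the log2 fold change was 0.90 ± 0.38. The laminin chain Lama5 lay the other way at -0.69 ± 0.38. Among 19 enzymes that modify and crosslink collagen and elastin 13 were above 0 (median 0.25). Of these 19, 2 were higher at an unadjusted p under 0.05 (2.09% of all genes were). Loxl1, an elastin crosslinker, was at 24.9, 22.9 and 40.5 CPM against 14.1, 13.9, 5.32, 13.6 and 19.1 CPM, with no overlap (1.16 ± 0.55). P3h1, a prolyl hydroxylase of collagen, was at 34.3, 16.5 and 74.3 CPM against 6.21 to 25.8 CPM (1.29 ± 0.62), and Plod2, a lysyl hydroxylase, at 0.87 ± 0.49.

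Other matrix lists were mixed. Proteases and their inhibitors had 14 of 20 above 0 (median 0.32), among them the membrane inhibitor of matrix metalloproteinases Reck, at 111, 113 and 209 CPM against 52.5 to 108 CPM (0.71 ± 0.39). Of 15 matricellular genes 7 were above 0 (median -0.02). Spp1, osteopontin, was at 1070, 210 and 782 CPM against 193, 328, 157, 217 and 397 CPM, with replicates 1 and 3 above all controls and replicate 2 among them (1.41 ± 0.54). The leucine-rich proteoglycan lumican, Lum, was at 567, 270 and 202 CPM against 150 to 218 CPM (0.90 ± 0.34), while its list had 5 of 11 above 0 (median -0.06). Elastic fibre genes had 8 of 14 above 0 (median 0.16), with Fbln1 at 1.26 ± 0.64, and lecticans and neural matrix 3 of 12 (median -0.24).

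Genes through which cells sense and hold matrix showed 1 member at an unadjusted p under 0.05. This was Wwtr1, the transcriptional coactivator TAZ, at 568, 247 and 1210 CPM against 244, 316, 146, 228 and 381 CPM. Replicates 1 and 3 lay above every control and replicate 2 did not (log2 fold change 1.36 ± 0.48). Its list of YAP, TAZ and mechanosensitive channel genes had 7 of 15 above 0 (median -0.05). Focal adhesion and actin genes had 9 of 20 above 0 (median -0.11), with tensin 1, Tns1, at 0.47 ± 0.28.

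Among astrocyte genes, Gfap, the intermediate filament of reactive astrocytes, was at 9230, 12500 and 6700 CPM against 9830, 8750, 6030, 8460 and 8290 CPM. The EDA-labelled values enclosed most of the controls, and the log2 fold change was 0.20 ± 0.38 (edgeR unadjusted p = 0.611), from -0.06 to 0.40 when each library was left out in turn. Of 19 homeostatic astrocyte genes 10 were above 0 (median 0.04) and of 23 reactive ones 12 (median 0.02), with 0 of either at an unadjusted p under 0.05. Stat3, a transcription factor that drives astrocyte reactivity, was at 1090, 602 and 1950 CPM against 448 to 1110 CPM (0.76 ± 0.39).

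Of 21 microglial identity genes 8 were above 0 (median -0.33, and 0.011 without control-labelled replicate 3), with Tyrobp, the signalling adaptor of Trem2, at 28.8, 6.25 and 139 CPM against 3.65 to 30.4 CPM (1.83 ± 0.83). Cx3cr1, the fractalkine receptor, was at 181, 69.1 and 446 CPM against 39.2 to 154 CPM (1.24 ± 0.60), and the leukocyte tetraspanin Cd53 at 0 to 1.31 CPM against 0 to 9.59 CPM (-3.63 ± 1.96). Of 24 genes of disease-associated microglia, 11 were above 0 (median -0.17, and 0.11 without control-labelled replicate 3), and 5 were at an unadjusted p under 0.05, 4 of them higher and 1 lower, where 2.09% and 1.87% of all genes were. Besides Spp1 and Tyrobp the higher ones were the receptor kinase Axl at 481, 395 and 776 CPM against 203, 254, 276, 294 and 519 CPM (0.83 ± 0.36) and the glycoprotein Gpnmb at 325, 144 and 436 CPM against 125 to 205 CPM (0.92 ± 0.43). The lower one was the lipase Lpl, with 0 reads in all 3 EDA-labelled libraries and 161 in 4 controls, 117 of them in replicate 3. With the reads of each group pooled, it was 32.4-fold lower against a floor of 3 reads over the group. That limit is counting error only, leaves out the spread between libraries and rests mostly on control-labelled replicate 3. Cd68, a lysosomal marker of phagocytes, was at 11.9, 7.21 and 7.37 CPM against 3.26 to 15.4 CPM (0.34 ± 0.77).

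Of the genes of antigen presentation, Cd74, the invariant chain of MHC class II, was at 1290, 375 and 1070 CPM against 110, 316, 185, 413 and 771 CPM. Replicates 1 and 3 lay above all controls and replicate 2 within them (log2 fold change 1.35 ± 0.64). Of 7 class II genes 5 were above 0 (median 0.68), and the median was -0.06 without EDA-labelled replicate 1. Of 19 class I and peptide loading genes 15 were below 0 (median -0.10, and 0.23 without control-labelled replicate 3). The class I chains H2-D1, at 12.4, 12.4 and 14.9 CPM against 26, 18.2, 81.8, 36.1 and 8.08 CPM, and H2-K1 and H2-Q6 were at -1.36 ± 0.64, -1.41 ± 0.80 and -1.20 ± 0.59. These class I genes are near-identical copies whose reads RSEM divides, so each is uncertain, and control-labelled replicate 3, which held the myelin transcripts, was the highest library in all 3.

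Interferon response genes had 14 of 34 above 0 (median -0.20), from -1.22 without EDA-labelled replicate 1 to 0.72 without control-labelled replicate 3. Complement genes had 5 of 16 above 0 (median -0.39), led by the receptor C3ar1 at -0.90 ± 0.57. Cytokines and chemokines had 9 of 17 (median 0.25, and -0.65 without EDA-labelled replicate 1), and the monocyte attractant Ccl2 was at 27.2, 0 and 1.49 CPM against 0 to 3.88 CPM (3.01 ± 1.87), a value that rested on replicate 1. Defining genes of infiltrating cells were scarce: of 10 neutrophil genes 1 was tested, Csf3r (-1.16 ± 1.02), of 8 mast cell genes 1, Kit (-0.45 ± 1.34), and of 18 lymphocyte genes 8 (median -0.64). Of 8 macrophage and monocyte genes 5 were above 0 (median 0.34), with 1 higher at an unadjusted p under 0.05 (2.09% of all genes were). This was the scarce F13a1, with reads only in EDA-labelled replicate 1.

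Of 22 endothelial genes 16 were above 0 (median 0.41, and -0.21 with the share of ENSMUSG00000119584 in the model). Endoglin, Eng, was at 64.9, 43.8 and 203 CPM against 44.6 to 80.8 CPM (0.96 ± 0.48) and von Willebrand factor, Vwf, at 88.9, 63.5 and 213 CPM against 28.1 to 82.7 CPM (1.04 ± 0.54). In both, replicate 3 alone was far above the controls. The only member of this list at an unadjusted p under 0.05 was lower: Tjp1, which encodes the tight junction protein ZO-1, at 178, 259 and 88.0 CPM against 332, 379, 300, 277 and 199 CPM (-0.77 ± 0.33). Of 16 pericyte and smooth muscle genes 9 were above 0 (median 0.27, and 0.002 with that covariate). Acta2, smooth muscle actin and a marker of myofibroblasts, was at 42, 27.8 and 92.1 CPM against 5.43, 43.7, 33.3, 7.83 and 21.7 CPM (1.27 ± 0.72), and the contractile myosin Myh11 at 4.85, 5.84 and 22.6 CPM against 0 to 3.29 CPM (3.91 ± 1.96, no overlap). Fibroblast and meningeal genes had 8 of 16 above 0 (median -0.03), and the 6 tested endothelin genes 4 (median 0.19).

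Myelin genes were below 0 in 19 of 20 cases, with a median log2 fold change of -1.56, and this rested on 1 library. Without control-labelled replicate 3, which held 33310 of their summed CPM, the median was 0.54. Ugt8a, which makes the myelin lipid galactosylceramide, was at 0, 1.10 and 0 CPM against 5.19, 11.8, 128, 3.95 and 1.70 CPM, so that all EDA-labelled libraries lay below all controls (-6.31 ± 2.13, edgeR unadjusted p = 0.00749). Sox10, the transcription factor of myelinating glia, was at 2.30, 1.17 and 0 CPM against 46.3 CPM in control-labelled replicate 3 and 0.472 to 0.873 CPM in the other controls. Olig2, of oligodendrocyte lineage, had reads only in that library (5.64 CPM, 90 reads) and was at 0 in the other controls as in the EDA-labelled libraries. The pooled limit, 18.1-fold lower against a floor of 3 reads over the group, rests on that library alone. It is therefore no limit for the difference between labels. Precursor genes (6 of 9 below 0, median -0.42, and 0.47 without replicate 3) and Schwann cell genes (8 of 9, median -0.57, and 0.19 without replicate 3) lay the same way.

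Photoreceptor genes were below 0 in 9 of 11 cases (median -2.90), and without control-labelled replicate 2 the median was 2.77. Gnat1, rod transducin, was at 26.5, 0.275 and 12.1 CPM against 733 CPM in that library and 0.370 to 2.04 CPM in the other controls. Rod phosphodiesterase Pde6g was at 155 CPM there and at most 2.54 CPM elsewhere, and recoverin, Rcvrn, had 0 reads in EDA-labelled libraries and 284 of its 303 control reads there. The pooled limit for Rcvrn, 60.9-fold lower, is counting error only and rests mostly on that library. Retinal interneuron genes had 3 of 5 above 0 (median 0.36), with Pax6, an eye and amacrine cell transcription factor, at 0.62 ± 0.41. Muller glia genes had 8 of 9 above 0 (median 0.15), and the exception was the carbonic anhydrase Car14 at 0.545, 1.03 and 2.55 CPM against 0.877 to 27.4 CPM (-2.75 ± 1.37).

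Retinal ganglion cell and axon genes had 7 of 19 above 0 (median -0.23). Pou4f1, which encodes Brn3a, a transcription factor used to count retinal ganglion cells, had 0 reads in all 3 EDA-labelled libraries and 85 reads over the 5 controls, at 2.52, 0.175, 0.877, 1.73 and 0.593 CPM. All controls had reads and no EDA-labelled library did (edgeR unadjusted p = 0.0011, adjusted p = 1, and adjusted p = 0.0274 by DESeq2). With the reads of each group pooled, it was 17.1-fold lower against a floor of 3 reads over the group, a limit of counting error only. Ganglion cell bodies lie in the retina and not in the nerve head, and the transcript was under 3 CPM in every library. The related Pou4f3 was at 0, 1.24 and 0 CPM against 10.4, 4.45, 0.689, 0.538 and 15.8 CPM (-3.92 ± 2.17), with 2 controls inside the EDA-labelled range.

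Skeletal muscle genes were measured in 5 cases, 4 above 0, and 3 were higher at an unadjusted p under 0.05 (2.09% of all genes were). The giant sarcomere protein titin, Ttn, was at 32.7, 3.23 and 8.87 CPM against 0, 0.175, 1.13, 1.26 and 0.222 CPM, with no overlap (4.71 ± 1.65). The fast troponins Tnni2 (4.27 ± 1.86) and Tnnt3 (5.73 ± 2.42) were highest in replicate 1, at 23.9 and 12.3 CPM. The list median of 4.27 was 2.47 without replicate 1. Pigment epithelium and melanocyte genes had 3 of 7 above 0, with Oca2 at 0, 1.72 and 13.6 CPM against at most 1.20 CPM. Epithelial genes had 4 of 7 (median 0.44), where beside Evpl the desmosome-linked Perp reached 17.3 CPM in replicate 3 and at most 1.10 CPM elsewhere. Erythrocyte, adipocyte and lens lists had 5, 2 and 3 tested genes, led by Hba-a2 (0.87 ± 1.04), Pnpla2 (0.17 ± 0.27) and the small heat shock protein Cryab (0.45 ± 0.84).

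In metabolism, 14 of 20 cholesterol synthesis genes were below 0 (median -0.59). Fdft1, squalene synthase, was at 0.121, 4.40 and 0 CPM against 5.03, 5.50, 18.3, 7.11 and 6.37 CPM with no overlap (-2.48 ± 1.17). Hmgcs1, which makes the precursor of mevalonate, was at 14.2, 12.3 and 0.527 CPM against 13.7 to 130 CPM (-2.51 ± 1.37). EDA-labelled replicate 3 was the lowest library in both genes, and control-labelled replicate 3, the library with most myelin transcripts, was the highest in both. The median stayed below 0 when each library was left out, from -1.21 to -0.33.

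Glycolysis and lactate shuttle genes had 9 of 24 above 0 (median -0.17). Pfkfb3, which drives glycolytic flux, was at 336, 120 and 921 CPM against 90.8 to 461 CPM (1.30 ± 0.60), and hexokinase 2, Hk2, lay the other way at 13.2, 19.4 and 9.13 CPM against 11.1 to 44.4 CPM (-0.96 ± 0.46). Iron genes had 8 of 14 above 0 (median 0.14), with the ferritin receptor Ncoa4 at 0.84 ± 0.46. Hypoxia genes had 9 of 17 (median 0.02), with the glucose transporter Slc2a1 at 0.41 ± 0.35. Cytosolic ribosomal protein genes had 19 of 45 (median -0.20), and Rps16 had the smallest p at 0.78 ± 0.47.

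Of 21 p53 target genes 13 were above 0 (median 0.21). Cdkn1a and the scarce Gtse1 were the 2 at an unadjusted p under 0.05, both higher (2.09% of all genes were). Phlda3, another target, was at 0, 1.65 and 10.6 CPM against 0 to 1.73 CPM (3.13 ± 1.66). Senescence genes had 7 of 12 above 0 (median 0.16) and cell cycle genes 7 of 11 (median 0.13). Of 20 genes of mitochondrial apoptosis 14 were above 0 (median 0.13), and Diablo was the only member at an unadjusted p under 0.05.

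Among protein folding genes, Dnajb1, a heat shock cochaperone, was at 1.94, 2.95 and 1.23 CPM against 6.84, 8.03, 3.38, 7.41 and 15.9 CPM, with no overlap (-2.02 ± 0.80). Manf, a secreted factor induced by stress of the endoplasmic reticulum, was at 2.12, 2.89 and 0 CPM against 9.04, 10.7, 4.13, 7.23 and 15.0 CPM, again with no overlap (-2.46 ± 1.07). The heat shock list had 9 of 14 below 0 (median -0.48), among them the constitutive chaperone Hspa8 at -0.85 ± 0.43, while the cochaperone Bag3 was at 0.88 ± 0.45. The unfolded protein response had 14 of 21 below 0 (median -0.19, and 0.082 with the ENSMUSG00000119584 covariate), while Asns, asparagine synthetase, was at 56.1, 35.9 and 313 CPM against 23 to 91.2 CPM (1.47 ± 0.59), a value of -0.09 without replicate 3.

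Immediate early genes had 13 of 19 below 0 (median -0.51) with members on both sides. Fosl2 was at 3.39, 11.3 and 10.5 CPM against 23.7, 18.6, 24.9, 13.3 and 16.0 CPM, with no overlap (-1.20 ± 0.54). Egr1 was at 37.6, 83.3 and 550 CPM against 21.3 to 141 CPM (1.59 ± 0.72), replicate 3 far above the rest, and Fosl1 at 2.12, 0.412 and 10.6 CPM against at most 1.70 CPM (2.69 ± 1.38). NRF2 targets had 10 of 19 above 0 (median 0.06), with Nfe2l2, which encodes NRF2, at 10.9, 18.9 and 0.790 CPM against 15.5 to 29.9 CPM (-1.26 ± 0.67). Lysosome and autophagy genes had 12 of 24 (median -0.01), with beta-glucuronidase, Gusb, at 201, 120 and 441 CPM against 99.7 to 205 CPM (0.98 ± 0.40) and Map1lc3b, an autophagosome marker, at -0.76 ± 0.41.

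Circadian clock genes had 12 of 17 below 0 (median -0.52) and 0 at an unadjusted p under 0.05. Per2, a negative limb of the clock, was at 3.33, 3.78 and 0.176 CPM against 14.2, 5.41, 7.14, 7.89 and 4.82 CPM, with no overlap (-1.69 ± 0.82). Glaucoma and optic neuropathy risk genes had 13 of 24 above 0 (median 0.03), and of the 24 only Svep1 was at an unadjusted p under 0.05, with reads in 1 library. Over the lists, 16 rule-chosen members stayed under 5 CPM in every library, had groups that overlapped and are given by name only, a limit chosen after their values were seen: Ccna2, Ccr2, Dpp4, Ednra, F13a1, Gjb6, Gtse1, Has2, Ly6c2, Nkg7, Nqo1, Rpe65, Slc10a6, Slc6a13, Svep1 and Top2a.

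DESeq2's 34 genes were mostly scarce transcripts. In 33 of them the mean was under 2 log2 CPM, and in 16 a single library held over 80% of the summed CPM. In 9 the groups did not overlap (2.75% of all genes tested), which choice by small p makes likelier. Those 9 include Pou4f1 and Alms1-ps2, and 3 others were chosen after their values were seen because several libraries carried reads. Vars2, a mitochondrial valyl-tRNA synthetase, was at 0.666, 1.99 and 13.1 CPM in the EDA-labelled libraries and had 0 reads in the 5 controls. With the reads of each group pooled, Vars2 was 104-fold higher against a floor of 3 reads over the group. That limit is counting error only and rests mostly on EDA-labelled replicate 3. Map3k7cl was at 0.0606, 0.275 and 0.0878 CPM against 1.89, 3.14, 1.19, 1.49 and 3.04 CPM (DESeq2, adjusted p = 0.00224). The zinc finger gene Zfp410 was at 4.54, 1.44 and 6.32 CPM against 0.157, 0.349, 0, 0.12 and 0.0741 CPM (DESeq2, adjusted p = 0.00824).

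The comparison at 12 months uses other libraries with the same labels, 5 of each, and shares none with the comparison at 22 months. There 689 genes (4.56%) were at an unadjusted p under 0.05 in edgeR. Of all genes tested 51.8% had the same direction at both ages, and of the 599 genes named by p at 22 months 56.8% did. At an unadjusted p under 0.05 in edgeR at both ages there were 69 genes (0.456%). Of these, 41 (0.271% of all genes) had the same direction at both ages, and the rest had opposite directions. Of the 41, 14 were well measured with a symbol and met the conditions on single libraries at 22 months, 7 higher and 7 lower. They were chosen by the shared direction, which is therefore no separate support for them.

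The 7 higher ones were Cdkn1a, Hdac4, Ikbkb, Bach2, Hspg2, Pxk and Bcar1. Cdkn1a was at 136, 130, 152, 232 and 176 CPM in EDA-labelled and 46.9, 117, 130, 98.7 and 52.4 CPM in control-labelled libraries at 12 months, where only 1 control reached the EDA-labelled range. Its log2 fold change there was 0.89 ± 0.38, beside 1.37 ± 0.43 at 22 months. Bach2, a transcriptional repressor of lymphoid and neural cells, was at 94.7, 114 and 222 CPM against 74.9, 104, 24.7, 57.9 and 96.3 CPM at 22 months (1.01 ± 0.43). At 12 months all 5 EDA-labelled libraries, at 98.2 to 248 CPM, lay above all 5 controls, at 40.9 to 87.1 CPM (1.42 ± 0.39). Bcar1, the scaffold p130Cas of integrin signalling, was at 253, 139 and 201 CPM against 79.3, 110, 115, 92.4 and 168 CPM at 22 months (0.81 ± 0.36, and 0.95 ± 0.32 at 12 months). Hdac4, a histone deacetylase that shuttles to the cytoplasm, was at 1.12 ± 0.42 and 0.87 ± 0.38 at 22 and 12 months, and the sorting kinase Pxk at 0.86 ± 0.32 and 0.70 ± 0.29.

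The 7 lower ones were Alms1-ps2, Diablo, Rps6kc1, Kcnab1, Atad1, Snapc1 and Ammecr1l. Alms1-ps2 was at 5.21, 6.38, 2.03, 4.09 and 9.79 CPM in EDA-labelled and 10.6, 27.6, 21.4, 18.6 and 9.25 CPM in control-labelled libraries at 12 months (-1.67 ± 0.49), where 1 pair of libraries overlapped. Diablo was at 5.23 to 37.2 CPM against 36.5 to 65.0 CPM (-0.98 ± 0.47). Atad1, which extracts misplaced proteins from the mitochondrial outer membrane, was at 26, 51.8 and 42.3 CPM against 110, 77.5, 77.5, 100 and 72.5 CPM at 22 months, with no overlap (-1.13 ± 0.52, and -0.98 ± 0.44 at 12 months). Kcnab1, a subunit of voltage-gated potassium channels, was at 7.03, 8.38 and 5.62 CPM against 12.4 to 28.3 CPM, also with no overlap (-1.39 ± 0.65, and -1.46 ± 0.54 at 12 months). The kinase-like Rps6kc1 (-1.59 ± 0.62 and -1.12 ± 0.51), the snRNA promoter factor Snapc1 (-0.91 ± 0.40 and -0.79 ± 0.34) and Ammecr1l (-0.84 ± 0.34 and -0.66 ± 0.29) made up the rest.

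**Figure D5:**
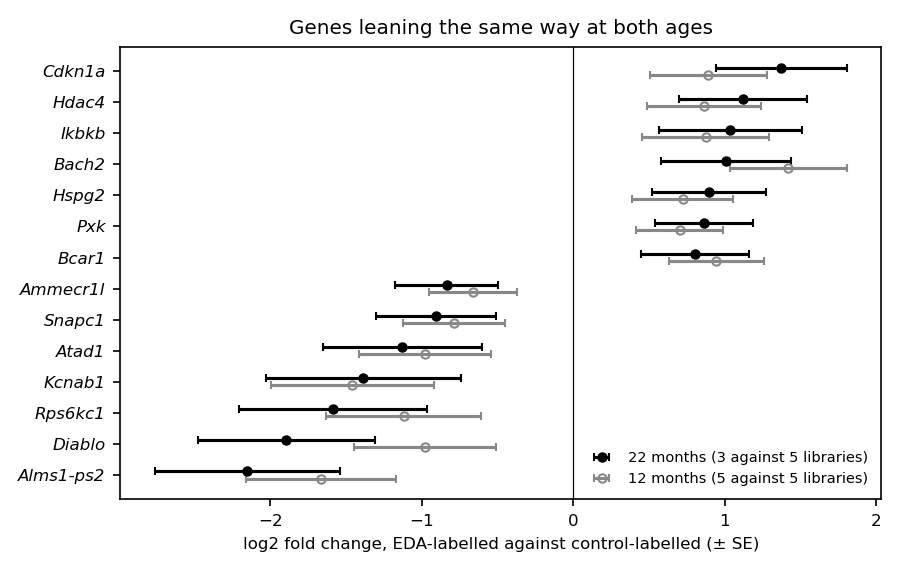
Log2 fold change of EDA-labelled against control-labelled libraries, ± standard error, filled for 22 months and open for 12 months. Shown are 14 of the 41 genes with an edgeR unadjusted p under 0.05 in the same direction at both ages. These 14 were well measured, carried a symbol and met the conditions on single libraries at 22 months. Alms1-ps2 has the lowest value at both ages, -2.15 and -1.67. The bars of the 2 ages overlap for every gene shown, which choosing genes by both ages favours.

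Whether the difference changed with age was tested by an interaction term. By edgeR 0 of 15118 genes passed (lowest adjusted p = 1), and 608 genes (4.02%) were at an unadjusted p under 0.05. DESeq2 called 32, and limma voom called 1 with and without quality weights. That gene, Pja1, a ubiquitin ligase, was at 0, 0.412 and 0 CPM against 1.57 to 5.06 CPM at 22 months. Among the genes described above the smallest interaction p belonged to Pou4f1 (unadjusted p = 0.00286, edgeR), Mdm4 (0.0031) and Ugt8a (0.0035). Mdm4 was at -1.72 ± 0.56 at 22 months and 0.66 ± 0.45 at 12 months, and Sik1 at -1.55 ± 0.52 and 0.42 ± 0.42, without passing the adjusted threshold.

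Genes that neighbour Fn1 on its chromosome were also examined, since they lie beside the engineered allele. Of the 25 tested genes on each side, 20 of 50 were above 0, with a median of -0.14, and 1 was at an unadjusted p under 0.05 in edgeR. That gene, Ctdsp1, a small phosphatase, was at 84.6, 57.7 and 282 CPM against 50, 65.4, 31.2, 44.5 and 122 CPM (1.18 ± 0.55), and it was at -0.06 ± 0.48 at 12 months.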

How the data were processed

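Tissue of the optic nerve head was taken by laser capture, and RNA was extracted with the RNeasy micro kit, amplified with SMART-Seq v4 and made into Nextera XT libraries for paired-end NovaSeq sequencing, per the labels' protocols. The authors aligned reads with STAR and quantified genes and isoforms with RSEM, per the labels, and the build was GRCm39, per the submitters' processing notes. Neither the annotation nor any tool version is given in the sources used here. The deposited expected counts of RSEM are estimates that divide reads between similar genes, and they were rounded to whole numbers here. The deposited TPM values, scaled by the authors for length and to a common total, were used only for marker levels and isoform shares.

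Genes were tested with edgeR 4.0.16 (filterByExpr, TMM scaling, robust quasi-likelihood fit, 4 group means over 18 libraries, Benjamini-Hochberg adjustment), so the 22-month contrast shares its estimate of the spread with the 12-month libraries. Standard errors are the log2 fold change divided by the square root of F. The code was tested on simulated data. Alternatives were DESeq2 1.42.0, limma 3.58.1 (voom, with and without quality weights) under R 4.3.3, other scalings, filters and covariates, and leaving out each library. DESeq2 gave no adjusted p for 157 genes. Library measures were compared by exact permutation in SciPy 1.17.1. CPM values are counts scaled to library size after TMM scaling and are not compared between genes. A share of 0 is given with the limit that 3 counts allow over all reads of the spanning isoforms, which is too narrow. Fold limits for genes at 0 reads in a group pool the reads of each group. They leave out the spread between libraries, so the true limit may be lower. These kits do not mark strand, so reads of overlapping and antisense genes cannot be told apart.

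Symbols for 52083 of 55416 identifiers, the exon structure of Fn1 and the order of its neighbours came from GENCODE M21, which is of another build (GRCm38), so no coordinates are given. The genes named are the 10 in each direction with the smallest unadjusted p that reach a mean of 2 log2 CPM, carry a symbol other than that of a predicted model, and have all 3 EDA-labelled libraries beyond the control median and at least 4 of 5 controls beyond the EDA-labelled median. They also include up to 8 genes in each direction called by DESeq2 that meet these conditions, 8 focal genes, up to 3 members of each of 64 gene lists with an unadjusted p under 0.1 (otherwise the 1 with the smallest), and 5 genes that check the libraries. The members and lists were chosen with earlier results of these data known. Some genes that this rule names are not reported here.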

Additional observations from a re-analysis of the deposited data

Results flagged for a closer look

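Of 186 values followed over the 5 control-labelled libraries, 21 had 1 library far from the other 4 (a gap to its nearest neighbour that took most of the group's range). For independent, normally distributed values chance flags about 1 in 20 groups. That rate does not hold here, since genes at 0 in the other 4 controls are flagged at any value. Genes followed were also chosen partly by p, and several share 1 outlying library. All values are log2 CPM for genes, with a prior count that puts 0 reads near -2.90, and for a list score the mean over its tested members of log2 CPM minus the member's own mean over the 8 libraries. Groups of 3 were not examined.

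In control-labelled replicate 1, Rps6kc1 was highest at 4.54, against 3.6 to 3.83 in the other 4. In control-labelled replicate 2, Cd53 was lowest at -2.90, against 1.56 to 3.28 in the other 4. Gnat1 was highest at 9.52, against -0.99 to 1.12 in the other 4. Pde6g was highest at 7.28, against -2.90 to -0.86 in the other 4. The photoreceptor list was highest at 5.65, against -2.10 to -1.06 in the other 4. In control-labelled replicate 3, Fdft1 was highest at 4.21, against 2.37 to 2.86 in the other 4. Loxl1 was lowest at 2.45, against 3.78 to 4.27 in the other 4. Olig2 was highest at 2.53, against -2.90 in the other 4. Sox10 was highest at 5.54, against -0.72 to 0.01 in the other 4. The oligodendrocyte and myelin list was highest at 3.95, against -1.02 to -0.01 in the other 4. The microglia list was highest at 1.23, against -0.25 to -0.02 in the other 4. In control-labelled replicate 4, Myd88 was highest at -0.57, against -2.90 in the other 4. Oca2 was highest at 0.41, against -2.90 in the other 4. Tgfb2 was highest at 8.80, against 8.32 to 8.43 in the other 4. Tnnt3 was highest at -1.02, against -2.90 in the other 4. In control-labelled replicate 5, Bag3 was highest at 6.59, against 5.03 to 5.44 in the other 4. Bmpr1b was lowest at 3.71, against 4.93 to 5.22 in the other 4. Eng was highest at 6.34, against 5.48 to 5.59 in the other 4. Itga5 was lowest at 3.33, against 5.29 to 5.85 in the other 4. Pfkfb3 was highest at 8.85, against 6.51 to 7.12 in the other 4. The cytosolic ribosomal protein list was lowest at -0.41, against 0.11 to 0.24 in the other 4.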

How the results depend on the processing

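No paired analysis was possible because the labels give no replicate numbers that the groups share. In place of 0 genes by edgeR, DESeq2 called 34 and voom with quality weights 1. For the interaction DESeq2 called 32, voom 1 and voom with quality weights 1. In place of 599 genes (316 higher, 283 lower) at an unadjusted p under 0.05, there were 1508 (1053 and 455) without a filter on low counts and 254 (150 and 104) at a mean of at least 2 log2 CPM. With ENSMUSG00000119584 entered as a covariate there were 327 (164 and 163), and 10 of the 20 ranked genes were at an unadjusted p under 0.05. Without EDA-labelled replicate 3 and control-labelled replicate 5 together, an alternative chosen after seeing the data, there were 287 (152 and 135). DESeq2 gave 466 lower genes. The share of higher genes among those at an unadjusted p under 0.05 was 52.8%, and 69.8% without the filter, 42.3% by DESeq2, 66.2% without EDA-labelled replicate 1 and 37% without EDA-labelled replicate 2. Leaving out each library in turn gave 263 to 1269 such genes (141 to 469 higher, 122 to 800 lower), 0 called genes, 16 to 37 of 60 lists with a median above 0 (28 with all libraries) and 14 to 20 ranked genes at an unadjusted p under 0.05. The cause was not tested.

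All 20 ranked genes kept their direction in all 20 alternatives. They were chosen from these data by small p and by the position of single libraries, which leaves little room for a change of sign. The kept direction is therefore no separate support for them. Of the 115 genes followed, which include list members chosen without those conditions, 20 changed sign in at least 1. Leaving out each library gave ranges across 0 for Asns (-0.086 to 1.92), Ccl2 (-0.67 to 4.22), Cryab (-0.80 to 0.94), Egr1 (-0.30 to 2.09), Gfap (-0.055 to 0.40), Gnat1 (-4.58 to 3.14), Hba-a2 (-0.31 to 1.31), Kit (-0.94 to 0.87), Pde6g (-9.32 to 2.77), Perp (-1.85 to 4.72), Plod2 (-0.10 to 1.28), Pnpla2 (-0.004 to 0.33), Sox10 (-4.03 to 0.69) and Tgfb2 (-0.36 to 0.10). Voom gave 0.25 for Gnat1 and 1.11 for Kit, and with quality weights -0.049 for Egr1, 0.61 for Gnat1, 0.82 for Kit, 0.15 for Pde6g and -0.84 for Perp. With the ENSMUSG00000119584 covariate, Col5a1 was at -0.061, Cryab -0.43, Gnat1 1.48, Hba-a2 -0.69, Itga5 0.90, Kit 0.53, Mrpl12 -0.034, Ncoa4 -0.088, Pde6g 7.57, Tgfb2 0.27, Tgif1 -0.062 and Tlr4 0.30. With a yes-or-no covariate for Xist above the summed Y-linked level, Tgfb2 was at 0.05. At 22 months only EDA-labelled replicate 1 had Xist above that level. Without EDA-labelled replicate 3 and control-labelled replicate 5, Cryab was at -0.31, Egr1 -0.12, Perp -1.87 and Tgfb2 0.066, and without control-labelled replicates 2 and 3, Gnat1 was at 3.26, Pde6g 2.56 and Sox10 0.80.

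Scaling with RLE factors or without mitochondrial genes moved the median of all genes by under 0.1. With 3 against 5 libraries and a median standard error of 1.03, most differences of the size seen were not detectable.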
